A study of Mus musculus with 3 samples.

Results

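The subunits of oxidative phosphorylation that are encoded in the nucleus and in mitochondrial DNA were examined in activated spleen T cells of young and aged C57BL/6 mice. Members were the protein-coding rows whose symbols start with mt-Nd, mt-Co, mt-Cyt or mt-Atp, or name an Ndufa, Ndufb, Ndufc, Ndufs or Ndufv subunit, Uqcr, Cox4 to Cox8 or Atp5. The rule found 91 of the 17796 genes in the table, 78 nuclear and 13 mitochondrial. By complex, 37 nuclear and 7 mitochondrial members belonged to complex I, 8 and 1 to complex III, 16 and 3 to complex IV, and 17 and 2 to complex V (ATP synthase). Ndufa4, named as a complex I subunit but known as a part of complex IV, was placed in complex IV. Of the nuclear members, 76 had a mean of at least 1 CPM (reads per gene scaled to a library total of 1000000) and entered counts and medians. The other 2, Cox6a2 and Cox7a1, are described by their values alone.

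The 3 libraries came from mice aged 2 months labelled vehicle, from mice with a stated age of 24 months given vehicle, and from mice of that age given fumarate at 10 mg/kg 3 times a week for 2 months. All cells were cultured for 3 days on antibodies against CD3 (2 ug/ml) and CD28 (5 ug/ml) with interleukin 2 at 100 IU/ml before polyadenylated RNA was sequenced. There was 1 library per group, and whether it pooled several mice is not stated. No difference therefore has a replicate check, and no p-value is given. Differences are log2 ratios of CPM + 1, a gene is counted as higher or lower past 1.5-fold, and the 95% intervals are exact (Clopper-Pearson) counting intervals for the plain CPM ratio, which cover counting error only.

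Estimated depth was 41.0 M reads in the young, 17.3 M in the aged vehicle and 13.9 M in the aged fumarate library. All 16 T cell markers were detected in every library. They summed to 4598 CPM in the young, 3997 CPM in the aged vehicle and 4935 CPM in the aged fumarate library. In aged vehicle over young 13 of the 16 had a ratio below 0, beside 46.2% of all genes with a mean of at least 1 CPM. In aged fumarate over aged vehicle 13 had a ratio above 0, beside 45.8%. The aged vehicle library stood apart by markers of other blood cells. All 13 erythroid and platelet markers summed to 13.1 CPM in the young, 1411 CPM in the aged vehicle and 185 CPM in the aged fumarate library, and the 8 basophil and mast cell markers found in the table to 5.34, 444 and 79.8 CPM. In the same order, macrophage markers (8 found) summed to 16.4, 51.1 and 6.93 CPM and B cell markers (9) to 6.20, 11.9 and 10.0 CPM. NK cell markers (7) summed to 240, 370 and 475 CPM, highest in the aged fumarate library. They did not move together. Of the 6 with a mean of at least 1 CPM, 4 were above 0 and 2 below in aged vehicle over young, from −0.39 for Klrk1 to 4.35 for Gzma. Ncr1 was not in the table, and the sum need not reflect NK cells. None of these markers was at 0 in the aged vehicle library, and 1 macrophage marker was at 0 in each of the other libraries. How these cells bear on the subunit levels was not tested, and in bulk RNA a different number of cells of a type cannot be told apart from a different RNA content per cell.

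Oxidative phosphorylation passes electrons from NADH and succinate through complexes I and II to ubiquinone, on to complex III, cytochrome c and complex IV, and uses the proton gradient built on the way to drive ATP synthase. All complexes except II combine nuclear subunits, made in the cytosol and imported, with a few subunits translated inside mitochondria from long polycistronic transcripts of mitochondrial DNA. T cells expand this machinery when they leave quiescence, so the supply from both genomes has to be matched.

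The mitochondrial genes lie close together, and parts of several are shared with neighbours or with nuclear copies, which bears on what a level of a single gene means. In mm10, mt-Atp8 (mitochondrial DNA, 7766 to 7969) and mt-Atp6 (7927 to 8607) overlap by 43 bases on the same strand, and mt-Nd4l (9877 to 10173) and mt-Nd4 (10167 to 11544) by 7 bases. Both pairs are carried on bicistronic messages. The genes mt-Atp8 and mt-Nd4l are printed whole because these short first cistrons had the highest ratio of aged vehicle over young in complexes V and I; capitals mark the bases that also belong to the second cistron.
mt-Atp8: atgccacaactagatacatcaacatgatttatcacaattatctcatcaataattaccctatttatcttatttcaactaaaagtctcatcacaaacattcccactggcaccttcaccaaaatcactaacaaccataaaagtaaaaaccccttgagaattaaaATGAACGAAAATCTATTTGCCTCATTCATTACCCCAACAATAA
mt-Nd4l: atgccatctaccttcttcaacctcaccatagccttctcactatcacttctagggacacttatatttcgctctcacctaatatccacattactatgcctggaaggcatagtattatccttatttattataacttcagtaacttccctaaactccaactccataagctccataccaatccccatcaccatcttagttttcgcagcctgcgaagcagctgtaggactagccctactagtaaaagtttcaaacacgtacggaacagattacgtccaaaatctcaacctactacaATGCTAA

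Nuclear copies of mitochondrial DNA also took reads. Transcript sequences of the members were aligned to those of the pseudogenes in the table, and a pseudogene with at least 95% identity over at least 100 bases was taken as a copy. A block of 7 such pseudogenes on chromosome 1 (24611535 to 24616197, minus strand) follows the mitochondrial order from the end of mt-Co1 to mt-Nd4. Its copies of mt-Co2 (Gm28661, 681 bases), mt-Atp6 (Gm10925, 678 bases), mt-Co3 (Gm28437, 783 bases), mt-Nd4l (Gm10222, 294 bases) and mt-Nd4 (Gm28439, 876 bases) were identical to the mitochondrial gene over their aligned length. The copy of mt-Nd3 (Gm28438) differed at 1 of 345 bases, T3C counted from the first base of mt-Nd3. The first 47 bases of both are printed to show how little separates them, with the differing base in capitals.
mt-Nd3: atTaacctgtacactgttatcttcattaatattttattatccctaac
Gm28438: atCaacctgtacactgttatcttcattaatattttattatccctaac

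A read that lies wholly within an identical stretch cannot be assigned by sequence, and the table lists reads under both the genes and their copies. How the counting assigned them is not stated. The block held 1614 CPM in the young, 2562 CPM in the aged vehicle and 1906 CPM in the aged fumarate library. With further copies on chromosomes 2 and 13, copies made up 13.0%, 13.2% and 12.1% of all reads given to the 13 mitochondrial members and their copies, in the same order. The share differed widely between genes, from none found for mt-Nd1, mt-Nd6, mt-Cytb and mt-Atp8 to 37.6% for mt-Co2 and 37.5% for mt-Nd4l in the young library. Values below are those of the members' own rows, and values with copies are given for the members whose ratios they move most.

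In aged vehicle over young, every mitochondrial member was higher and most nuclear members were slightly lower. The nuclear direction depended on the scaling: with libraries scaled to the summed T cell markers the nuclear median was 0.08, and the mitochondrial one 0.86. The 13 mitochondrial members had a median log2 ratio of 0.66 (range 0.42 to 1.42), and 9 were past 1.5-fold higher, beside 16.5% of the 13750 genes with a mean of at least 1 CPM. None was lower past that limit, beside 6.73% of all genes. The 76 nuclear members had a median of −0.12 (range −0.64 to 0.31), against 0.03 over all genes. Below 0 lay 54 of the 76, or 71.1%, against 46.2% of all genes, but only Ndufv3 was past 1.5-fold lower and none higher. The lowest mitochondrial ratio, 0.42 for mt-Co3, was above the highest nuclear one, 0.31 for Cox6b2 (interval −0.01 to 0.77), so the ratios from both genomes did not overlap. Counting intervals lay wholly to one side of 0 for all 13 mitochondrial members, and for 39 nuclear members below 0 and 9 above 0 of 76. Over all genes 29.8% had an interval wholly below 0 and 38.1% wholly above 0, and how often an interval excludes 0 depends on a gene's level.

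**Figure D1:**
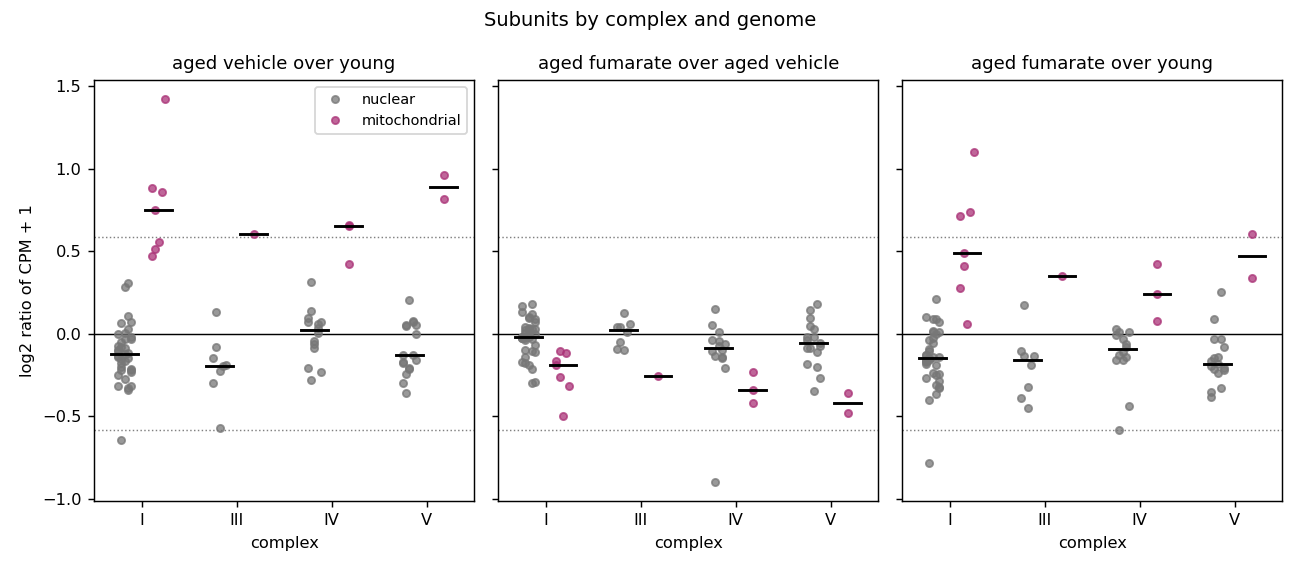
Log2 ratios of CPM + 1 of single subunits (points) by complex, nuclear in grey and mitochondrial in purple, with medians as bars and dotted lines at 1.5-fold; each panel is 1 pair of libraries and has no replicates. In aged vehicle over young all mitochondrial points lie above all nuclear points, and in aged fumarate over aged vehicle the mitochondrial medians lie below the nuclear ones in each complex.

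The 7 mitochondrial members of complex I form most of its proton-pumping membrane arm. The subunit mt-Nd1, next to the ubiquinone site, was at 1424 CPM in the young, 1975 CPM in the aged vehicle and 1729 CPM in the aged fumarate library. The antiporter-like pump subunit mt-Nd2 was at 582, 979 and 818 CPM in the same order. The other antiporter-like subunits, mt-Nd4 and mt-Nd5, were at 648, 1174 and 1082 CPM and at 596, 1100.1 and 979.5 CPM. In all 4 the aged vehicle library was highest and the young one lowest, and for mt-Nd4 and mt-Nd5 the fumarate library lay close to vehicle. Their log2 ratios for aged vehicle over young were 0.47 (interval 0.45 to 0.49) for mt-Nd1, 0.75 (0.72 to 0.78) for mt-Nd2, 0.86 (0.83 to 0.88) for mt-Nd4 and 0.88 (0.86 to 0.91) for mt-Nd5. With its copy mt-Nd4 had a ratio of 0.89.

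The small complex I genes behaved less evenly. The first cistron mt-Nd4l, printed above, was at 30.9, 84.4 and 67.4 CPM, and its log2 ratio was 1.42 (1.34 to 1.56) for aged vehicle over young. With its identical copy it was at 49.4, 130.2 and 106 CPM and had a ratio of 1.38, so its place as the member furthest apart was the same with the copy added. The similarly short mt-Nd3 was at 96.7, 143 and 101 CPM, a ratio of 0.56 (0.49 to 0.63) that lay just inside the 1.5-fold limit and was 0.40 with its copy. The young and fumarate libraries differed little for this gene, with a ratio of 0.06 (−0.03 to 0.15) that turned to −0.06 with the copy added. The gene mt-Nd6, the only subunit read from the other strand of mitochondrial DNA, was at 204, 291 and 271 CPM (aged vehicle over young 0.51, interval 0.47 to 0.57). It overlaps mt-Nd5 by 14 bases on the opposite strand, and since strand use in the counting is not stated, reads from that stretch cannot be told apart.

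In complexes III and IV the mitochondrial members belong to the catalytic cores. Cytochrome b (mt-Cytb), which holds both ubiquinone sites of complex III, was at 1039 CPM in the young, 1580.4 CPM in the aged vehicle and 1324 CPM in the aged fumarate library (aged vehicle over young 0.61, interval 0.58 to 0.63). The oxygen-reducing subunit mt-Co1 was at 3829, 6027 and 5141 CPM, a ratio of 0.65 (0.64 to 0.67). The subunit that takes electrons from cytochrome c, mt-Co2, was at 969, 1527 and 1142 CPM, and mt-Co3 at 1178, 1578 and 1246 CPM. For mt-Co2 and mt-Co3 the fumarate library was nearer to the young one, while for mt-Co1 it was nearer to vehicle. Ratios for aged vehicle over young were 0.66 (0.63 to 0.68) for mt-Co2 and 0.42 (0.40 to 0.44) for mt-Co3, and with copies 0.66 and 0.46.

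Complex V has 2 mitochondrial members, both in its membrane part. The proton channel subunit mt-Atp6 was at 959, 1686 and 1210.3 CPM (aged vehicle over young 0.81, interval 0.79 to 0.84, and 0.81 with its copy). Its upstream neighbour mt-Atp8 was at 86.5, 169.6 and 132 CPM (0.96, interval 0.90 to 1.04). In both genes vehicle was highest and young lowest.

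**Figure D2:**
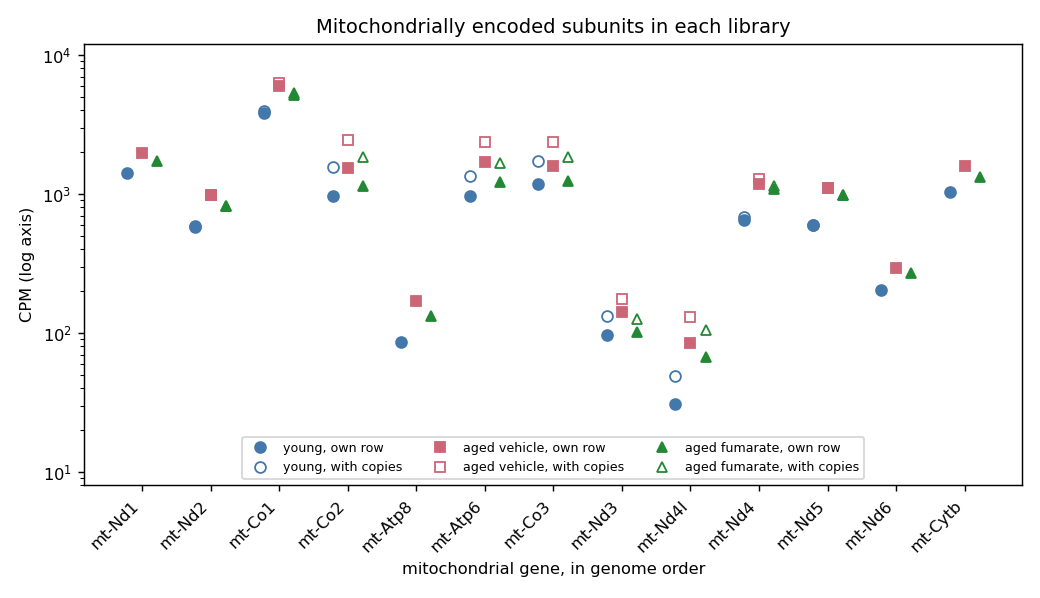
CPM (log axis) of the 13 mitochondrially encoded subunits in genome order in each library, as filled symbols for the gene's own row and open symbols with its near-identical pseudogene copies added. The aged vehicle library is highest for each gene in own rows, and the young one lowest; with copies added, mt-Nd3 is lowest in the fumarate library instead (126 CPM, against 131 CPM in the young).

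The mitochondrial ribosomal RNAs did not share this pattern. The 12S gene mt-Rnr1 was at 414, 402 and 434 CPM in the order young, vehicle and fumarate, and the 16S gene mt-Rnr2 at 1241, 1345 and 1560.3 CPM. The libraries were made from polyadenylated RNA, so these levels do not measure the amount of ribosomal RNA. As a share of the library, the 13 subunits took 1.16%, 1.83% and 1.52% of CPM and the 78 nuclear subunits 1.03%, 0.936% and 0.936%.

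Compared within complexes, the gap between the genomes was present in each of the 4 complexes in aged vehicle over young. The mitochondrial median exceeded the nuclear one by 0.87 in complex I, 0.80 in complex III, 0.63 in complex IV and 1.02 in complex V (log2), and by 0.77 over all members. Scaling the libraries differently shifts both medians alike, apart from the effect of the added 1 CPM, and so leaves this difference almost as it is. In summed CPM, complex I had 1.49 mitochondrial reads per nuclear read in the young, 2.64 in the aged vehicle and 2.37 in the aged fumarate library. In complex V the values were 0.207, 0.411 and 0.291, since its most abundant members, the catalytic F1 subunits, are nuclear.

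**Figure D3:**
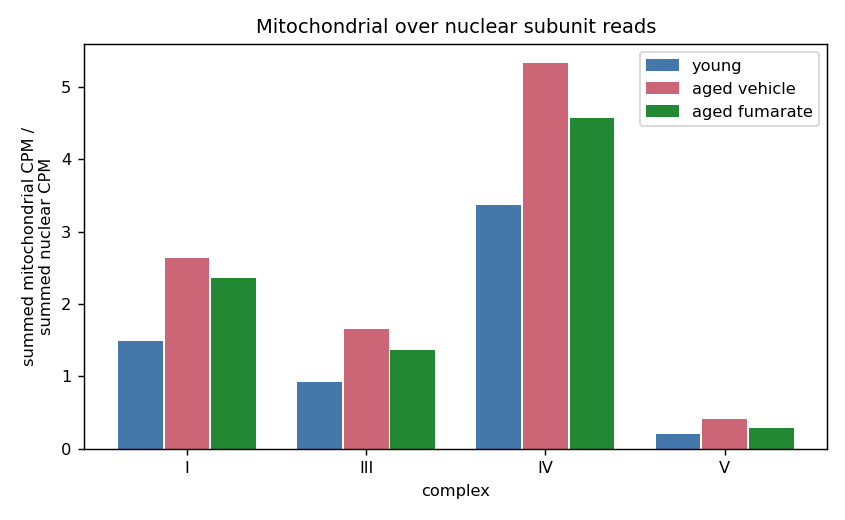
Summed CPM of mitochondrial subunits divided by summed CPM of nuclear subunits, by complex, in each library (bars; 1 library per group, no error bars). In all 4 complexes the ratio is lowest in the young and highest in the aged vehicle library, for example 3.37, 5.33 and 4.56 in complex IV for young, vehicle and fumarate.

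Per kilobase of transcript, levels of single genes can be set side by side, using the median length of a gene's coding transcripts in GENCODE M21. In the young library, the median was 392 CPM per kilobase over the mitochondrial and 74.1 over the nuclear members of complex I, and 1503 and 155 in complex IV. Within the mitochondrial members the level per kilobase ran from 104 for mt-Nd4l to 2478 for mt-Co1 in that library. In own rows the bicistronic pairs were uneven, with mt-Atp6 at 1408 and mt-Atp8 at 424 CPM per kilobase, and mt-Nd4 at 471 and mt-Nd4l at 104. In the aged vehicle library mt-Nd4 and mt-Nd4l were at 852 and 284. In the young library, copies held 28.8% of the reads of mt-Atp6 and its copy, 5.26% for mt-Nd4 and 37.5% for mt-Nd4l. How reads in the overlaps or at the ends of such short genes were counted is not stated. These values therefore need not show a difference within 1 message.

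Nuclear complex I members changed little and mostly in 1 direction. In aged vehicle over young, 30 of 37 lay below 0 (median −0.12), beside 46.2% of all genes. Of the 37, 19 had an interval wholly below 0, beside 29.8% of all genes, and 2 wholly above 0, beside 38.1%. This direction depends on the scaling, since scaling to the summed T cell markers moved the median of all genes by 0.19. The 7 nuclear core subunits, which carry the flavin and the iron-sulfur chain to ubiquinone, had a median of −0.13 and the 30 accessory ones −0.12. Among the core subunits, Ndufv1, which binds NADH, was at 134 CPM in the young, 115 CPM in the aged vehicle and 107 CPM in the aged fumarate library. Ndufs3 was at 75.1, 59.1 and 60.4 CPM (aged vehicle over young −0.34, interval −0.45 to −0.24), and the iron-sulfur subunit Ndufs8 at 66.3, 52.5 and 51.2 CPM (−0.33, −0.45 to −0.23). Ratios nearer to 0 were those of Ndufv2 (−0.13), Ndufs1 (−0.05) and Ndufs7 (−0.03).

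The nuclear member furthest from 0 in both comparisons with the young library was Ndufv3, a small accessory subunit of the NADH-binding module (chromosome 17, 31520115 to 31531331, mm10). It was at 87.8 CPM in the young, 56.0 CPM in the aged vehicle and 50.7 CPM in the aged fumarate library, so both aged libraries were well below the young one. The log2 ratio was −0.64 (−0.75 to −0.55) for vehicle over young and −0.78 (−0.91 to −0.68) for fumarate over young, and no other nuclear member was past 1.5-fold in either of these comparisons. No copy or overlapping gene in the table was found for it. The most abundant accessory subunit, Ndufa10, was at 149.7, 130.1 and 134 CPM, and the accessory members with the highest ratios were Ndufb1-ps (34.5, 43.0 and 36.9 CPM), whose symbol marks a pseudogene although the table lists it as coding, and Ndufa11 (33.0, 40.3 and 35.2 CPM).

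In complex III, 7 of 8 nuclear members were below 0 in aged vehicle over young (median −0.19), beside 46.2% of all genes. Each of the 7 had an interval wholly below 0, beside 29.8% of all genes. Scaling to the summed T cell markers moved the median of all genes by 0.19, about the size of the complex III median, so this direction depends on the scaling. Uqcrq, a small subunit that packs against cytochrome b, was at 197 CPM in the young, 132 CPM in the aged vehicle and 144 CPM in the aged fumarate library. Its ratio of −0.57 (−0.64 to −0.51) lay just inside the 1.5-fold limit. The core proteins Uqcrc1 (231, 201 and 202 CPM) and Uqcrc2 (196, 172 and 179 CPM) and the Rieske iron-sulfur protein Uqcrfs1 (188, 169 and 174 CPM) were lower in both aged libraries than in the young one by small amounts. The exception was Uqcr11, at 47.0, 51.6 and 53.2 CPM (0.13, interval 0.02 to 0.25). In fumarate over vehicle the nuclear members of complex III stayed between −0.10 for Uqcrb (40.6, 34.7 and 32.3 CPM) and 0.12 for Uqcrq. With its copies, the vehicle over young ratio of Uqcrb was −0.10 instead of −0.22.

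Complex IV was the complex whose nuclear median was above 0 in aged vehicle over young, at 0.02 over 14 members, with 8 above and 6 below 0. Scaling with the trimmed mean of M values moved the median of all genes by −0.05 in this comparison, more than the size of that median. Its sign therefore depends on the scaling. The members above 0 include Cox5b-ps (28.4, 29.2 and 27.2 CPM, ratio 0.04), whose symbol marks a pseudogene although it is listed as coding. Cox4i1, the most abundant, was at 336 CPM in the young, 291 CPM in the aged vehicle and 301 CPM in the aged fumarate library, and Cox5a at 148, 163 and 149 CPM. Cox7c had the lowest ratio, at 84.4, 69.2 and 77.1 CPM (−0.28, interval −0.38 to −0.19). Cox7a2l was at 149, 127 and 109.7 CPM and was thus lower in each aged library. Among the 14 nuclear complex IV members above the minimum, the highest ratio in fumarate over young was 0.03, for Cox7b (137, 144 and 140.1 CPM).

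Isoforms of complex IV that belong to other tissues were at low levels, Cox6a2 and Cox7a1 near the limit of detection and Cox6b2 above it. Cox6a2, a heart and skeletal muscle isoform, was at 0.464, 0.174 and 0 CPM in the order young, vehicle and fumarate, and a count of 0 allows up to 0.217 CPM at the depth of the last. Cox7a1, another muscle isoform, was at 0.537, 0.405 and 1.08 CPM. Cox6b2, a testis isoform, was at 3.95, 5.16 and 2.31 CPM, or 3.53%, 4.26% and 2.11% of the Cox6b level per kilobase, with Cox6b1 making up the rest. The ubiquitous Cox6a1 (149, 157 and 150.1 CPM) and Cox6b1 (121, 129 and 120 CPM) were within small ratios of each other across libraries. Cox7a2 was at 66.7, 69.6 and 62.9 CPM and made up 42.7%, 47.7% and 48.4% of the Cox7a level per kilobase, nearly all of the rest being Cox7a2l.

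**Figure D4:**
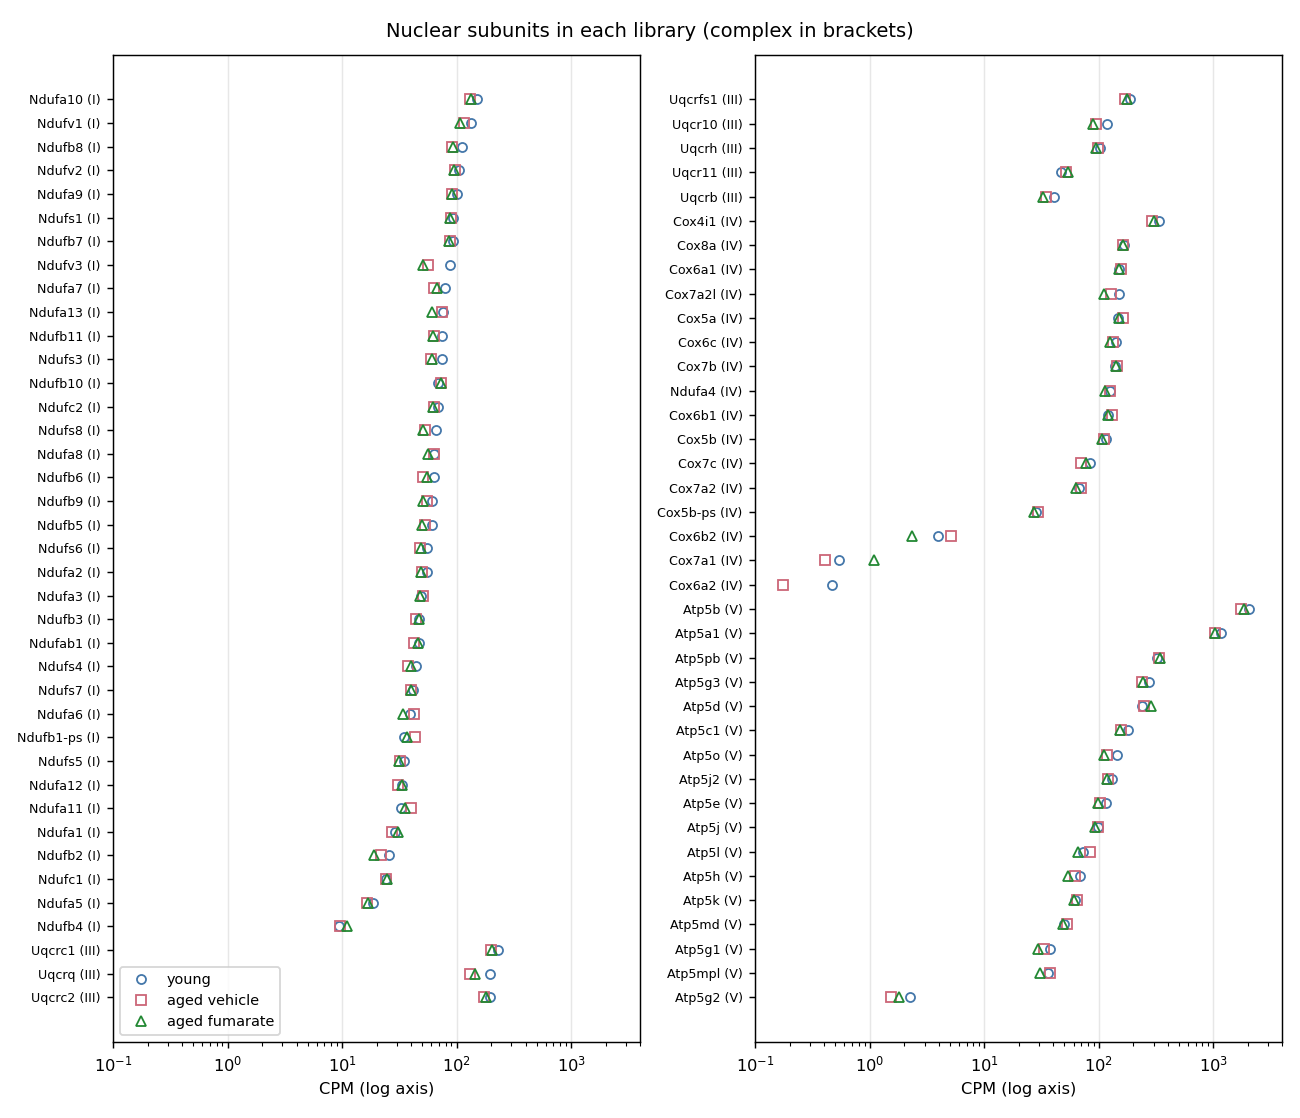
CPM (log axis) of nuclear subunits in each library, grouped by complex (in brackets) and ordered by the young level; Cox6a2 at 0 in the fumarate library is not drawn. The 3 symbols of most genes lie close together, whereas Ndufv3 and Uqcrq show a higher young symbol and Cox6b2 a lower fumarate symbol.

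In complex V the F1 head subunits are the most abundant nuclear members. The catalytic subunit Atp5b was at 2054 CPM in the young, 1733 CPM in the aged vehicle and 1854 CPM in the aged fumarate library, and its partner Atp5a1 at 1173, 1039 and 1026 CPM. The ratios for aged vehicle over young were −0.25 (−0.26 to −0.23) and −0.17 (−0.20 to −0.15). The stalk subunits of F1 were at 179, 154 and 152 CPM for Atp5c1, at 237, 249 and 283 CPM for Atp5d, and at 114, 102 and 98.1 CPM for Atp5e. Atp5d was the only F1 subunit above 0 in all 3 comparisons. The member with the highest ratio for vehicle over young was Atp5l, subunit g of the membrane part, at 72.2, 83.5 and 65.3 CPM (0.21, interval 0.12 to 0.30). Atp5o, which joins the F1 head to the outer stalk, was at 143, 117 and 109.6 CPM (−0.30, −0.37 to −0.23). Its row spans several gene models that overlap neighbouring genes, so its level is less certain.

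The subunit c genes show how pseudogene copies can hide a member. Atp5g1, Atp5g2 and Atp5g3 encode the same mature protein of the proton-driven ring with different import sequences. In own rows Atp5g3 was at 274, 237 and 241 CPM, Atp5g1 at 37.6, 33.3 and 29.2 CPM and Atp5g2 at only 2.25, 1.54 and 1.81 CPM. The pseudogene Gm10175 (chromosome 7, 23946646 to 23947290), identical to the Atp5g2 transcript over 645 bases, was at 231, 170.2 and 181 CPM. Gene and copy together gave 234, 172 and 183 CPM, or 49.1%, 44.9% and 46.4% of the family per kilobase, instead of 0.960%, 0.761% and 0.882% for the gene alone. Which of the loci gave the reads cannot be told from the table. With the copy, the Atp5g2 ratio for aged vehicle over young was −0.44, against −0.36 (interval −1.20 to 0.11) from its few own reads.

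**Figure D5:**
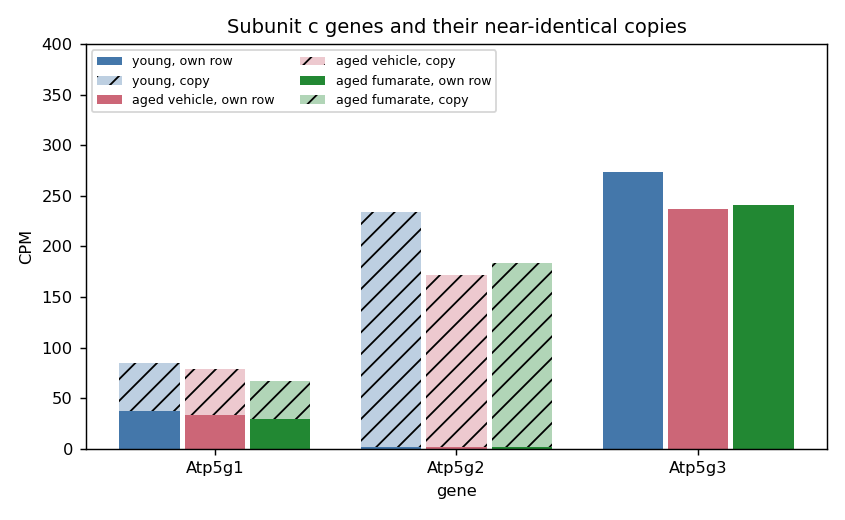
CPM of Atp5g1, Atp5g2 and Atp5g3 (solid bars) with their near-identical pseudogene copies stacked on top (hatched) in each library. Nearly all of the Atp5g2 bar, 99.0% in the young library, belongs to its copy Gm10175, while no copy was found for Atp5g3.

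Other nuclear members had copies as well. Such copies were found for 20 of the 78 nuclear members, 34 in all, and held 5.35%, 5.06% and 4.90% of the reads of members and copies together in the young, vehicle and fumarate libraries. Ndufb4, at 9.45, 9.66 and 11.1 CPM, has the identical copy Ndufb4c at 31.4, 30.8 and 26.4 CPM. With it the fumarate over young ratio of Ndufb4 turned from 0.21 to −0.12, so its place as the nuclear complex I member with the highest ratio in that comparison depended on its own row. Atp5h (68.1, 62.2 and 54.0 CPM) has 4 copies that together held 73.8, 66.6 and 58.2 CPM.

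In aged fumarate over aged vehicle, mitochondrial members were lower and nuclear members differed little. All 13 mitochondrial members were below 0, beside 54.2% of all genes, and all had intervals wholly below 0, beside 26.4% of all genes. The mitochondrial median was −0.26 (range −0.50 to −0.11). No mitochondrial member was past 1.5-fold lower, beside 11.2% of all genes, and none higher, beside 2.15%. With libraries scaled to the summed T cell markers, 6 were past 1.5-fold lower and the median was −0.56. That scaling moved the median of all genes by −0.29, and the share of all genes past the limit was not computed under it. The lowest ratios were those of mt-Nd3 (−0.50, interval −0.59 to −0.40), mt-Atp6 (−0.48, −0.51 to −0.45) and mt-Co2 (−0.42, −0.45 to −0.39), and the nearest to 0 those of mt-Nd6 (−0.11, −0.17 to −0.04) and mt-Nd4 (−0.12, −0.15 to −0.09). By complex the mitochondrial medians were −0.19 in complex I, −0.26 in complex III, −0.34 in complex IV and −0.42 in complex V. The ratios therefore spread by gene, and those of complexes IV and V were mostly further from 0 than those of complex I. In the same pair of libraries the summed erythroid and platelet markers went from 1411 to 185 CPM, and their part in the mitochondrial values was not tested.

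The 76 nuclear members had a median of −0.03 in fumarate over vehicle, against −0.02 over all genes, and the sign turned with the scaling (0.01 with the trimmed mean of M values, −0.33 with the T cell marker sum). Intervals included 0 for 56 of them, were below 0 for 16, beside 26.4% of all genes, and above 0 for 4, beside 18.2%. Only Cox6b2 was past 1.5-fold lower, at −0.90 (−1.79 to −0.56), and none was higher. The highest ratio was that of Atp5d, 0.18 (0.12 to 0.25), and among the abundant members Atp5b was at 0.10 (0.07 to 0.12). Members with an interval wholly below 0 included Atp5l (−0.35, −0.48 to −0.23), Ndufa6 (−0.30, −0.47 to −0.13) and Ndufa13 (−0.29, −0.42 to −0.17). The mitochondrial median was 0.23 below the nuclear one (log2), and this direction held in each complex, from 0.17 below in complex I to 0.36 below in complex V.

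The gap between the genomes was also present, at a smaller size, in aged fumarate over young, a comparison that shares a library with each of the others. Mitochondrial members had a median of 0.41 (range 0.06 to 1.10), and 4 were past 1.5-fold higher, beside 10.5% of all genes. These were mt-Nd4l (1.10, interval 1.004 to 1.25), mt-Nd4 (0.74, 0.71 to 0.77), mt-Nd5 (0.72, 0.69 to 0.75) and mt-Atp8 (0.60, 0.52 to 0.69). The lowest mitochondrial ratios were those of mt-Nd3 (0.06, −0.03 to 0.15), mt-Co3 (0.08, 0.05 to 0.11) and mt-Co2 (0.24, 0.21 to 0.26). The nuclear median was −0.15, with 62 of 76 below 0 (81.6%, against 49.2% of all genes), 1 past 1.5-fold lower (Ndufv3), beside 6.79% of all genes, and none higher. Intervals were wholly below 0 for 47 nuclear members, beside 28% of all genes, and wholly above 0 for 3, beside 30.5%. The mitochondrial median was 0.56 above the nuclear one. In this pair of libraries too, markers of other blood cells differed, with erythroid and platelet markers summing to 13.1 and 185 CPM in young and fumarate and basophil and mast cell markers at 5.34 and 79.8 CPM, and their part in the result was not tested.

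Genes that feed or build the system were read from lists. Complex II, which is encoded wholly in the nucleus, and the cytochrome c pair had no member past 1.5-fold in any comparison, with medians over 6 genes of −0.11 in aged vehicle over young, 0.04 in fumarate over vehicle and −0.09 in fumarate over young. Sdha, its flavoprotein, was at 265, 241 and 245 CPM, and the iron-sulfur subunit Sdhb at 119.6, 102 and 106 CPM. The membrane anchors were at 106, 100.03 and 95.7 CPM for Sdhc and at 148, 145 and 143 CPM for Sdhd. Cyc1, the cytochrome c1 of complex III that the rule did not take, was at 154, 139 and 146 CPM, and Cycs, cytochrome c, at 104, 113 and 118 CPM. Of 49 assembly factors in the table, 1 was higher (Sco2) and 2 lower (Cox17 and Nubpl) in aged vehicle over young (median −0.07), none was past 1.5-fold in fumarate over vehicle (−0.02), and Cox17 was lower in fumarate over young (−0.07). Over all genes the shares were 16.5% higher and 6.73% lower, 2.15% and 11.2%, and 10.5% and 6.79% in these 3 comparisons, so the shares of these lists were below the background. Cox17, a copper chaperone for complex IV, was at 207, 124 and 134 CPM.

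The genes that copy, transcribe, process and translate mitochondrial DNA did not follow the mitochondrial transcripts as a list. Of 32, 1 was past 1.5-fold higher and none lower in aged vehicle over young (median −0.07), none in fumarate over vehicle (0.05), and 1 higher and 1 lower in fumarate over young (−0.01), all below the shares over all genes just given. The higher one was Hsd17b10, a subunit of mitochondrial ribonuclease P, at 52.8, 81.8 and 89.1 CPM, and the lower one Tfb1m. Tfam, which packages mitochondrial DNA and starts its transcription, was at 61.9, 43.5 and 45.1 CPM, lower in both aged libraries. Among 11 regulators of mitochondrial genes in the table, Esrra, a nuclear receptor (24.5, 44.0 and 39.5 CPM), and Sirt3, a mitochondrial deacetylase (6.67, 13.9 and 11.9 CPM), were higher in both aged libraries than in the young one and the other 9 were within 1.5-fold in all comparisons (list medians 0.04, 0.04 and 0.07). These 2 of 11 stand beside 16.5% and 10.5% of all genes, shares that a list this short cannot be set apart from.

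Promoters of the nuclear members were searched for sites of factors known for mitochondrial genes, as a feature that the rule did not use. RefSeq promoters (GRCm38.p6, 250 bases before to 50 after the start) were found for 64 of the 78. The NRF1 motif, matched on either strand in the letters shown in capitals below with any base at the sixth position, was in 15 of them, 23.4% (95% exact interval 13.8% to 35.7%), against 5.19% of the promoters of all 27025 genes and 11.1% of those of the coding genes in the expression table. The YY1 motif was in 4 members (6.25%, interval 1.73% to 15.2%, against 1.17% of all) and in none with the 250 bases before the start alone. The ETS motif CCGGAAGTG was in 2 (3.13%, against 2.25%) and the SP1 motif GGGGCGGGG in 10 (15.6%, against 12.9%). None of the 4 was in the window of 37 members. Matches of different motifs may overlap, and a match is a description of sequence, not a site that was shown to be bound. Among the coding genes of the table the shares were 2.63% for YY1, 4.68% for ETS and 24.2% for SP1, so for ETS and SP1 the members were not above that share. Printed below are upstream stretches with NRF1 matches in capitals, for Cox6a1, an abundant member, and for Ndufb4 and Atp5g2, whose copies hold most of the reads.
Cox6a1 promoter: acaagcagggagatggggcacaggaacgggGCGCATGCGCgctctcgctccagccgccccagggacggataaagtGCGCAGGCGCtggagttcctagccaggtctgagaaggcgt
Ndufb4 promoter: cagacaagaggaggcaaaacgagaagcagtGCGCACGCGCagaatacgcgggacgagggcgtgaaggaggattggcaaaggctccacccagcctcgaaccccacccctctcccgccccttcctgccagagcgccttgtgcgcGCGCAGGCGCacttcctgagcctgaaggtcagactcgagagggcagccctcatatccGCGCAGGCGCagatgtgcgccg
Atp5g2 promoter: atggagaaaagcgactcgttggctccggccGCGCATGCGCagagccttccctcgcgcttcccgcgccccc
These lie on the minus strand at chr5:115349036-115349150, chr16:37654369-37654589 and chr15:102671050-102671119.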

How the data were processed

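Values are CPM, scaled to 1000000 per library by the authors, in a deposited table named as raw counts. STAR, Partek and mm10 stand in the submitters' processing notes, without versions or roles. For counting, strand use and annotation release, the sources used here give nothing. Libraries were grouped by title and columns matched by description. Depth was estimated from the worth of 1 read, the step at which low values repeat. Within 0.02 reads, 57.9% to 67.7% of values were whole, so whole reads were not recovered and no count model was used. For the members alone the shares were lower, 34.1% in the young, 48.4% in the aged vehicle and 52.7% in the aged fumarate library. Intervals are 95% exact intervals on rounded estimated reads. A value of 0 allows 3 reads.

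Ratios used CPM + 1 and a limit of 1.5-fold. Lists of carriers and complex II, assembly factors, mitochondrial DNA expression and regulators, and cell markers were used. Members, lists and tests were chosen with earlier results of these data known. Genes named were all mitochondrial members, nuclear members past 1.5-fold, the most abundant member and those with the highest and lowest ratio by complex, isoform families, core complex I and F1 subunits and complex II. Others were named after their values were seen. The values of 1 nuclear member are not reported here by name or drawn among the levels of single genes, and it stays in counts, sums and medians.

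All 91 members matched GENCODE M21 (88 by symbol and 3 by position), 90 with the same start and end. Atp5o has several gene models, and 29 members overlap a listed gene on the opposite strand. Copies were found with blastn 2.17.0. The count rule was run on simulated reads drawn with counting error alone. Without a spread between mice, these cannot show how the rule behaves with 1 library per group. Alternatives were other scalings (trimmed mean of M values, median of ratios, protein-coding total without mitochondrial genes, T cell marker sum), added constants, minimums, a 2-fold limit and, added after seeing the data, copies added to members. Tools were pandas 2.3.3, matplotlib 3.10.9, scipy 1.17.1 and numpy 2.4.6 under Python 3.11.15. Printed promoters were chosen after their motifs were seen.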

Additional observations from a re-analysis of the deposited data

How the results depend on the processing

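No paired analysis was possible because each group had 1 library. The mitochondrial minus the nuclear median ranged from 0.762 to 0.780 in vehicle over young, from −0.237 to −0.225 in fumarate over vehicle and from 0.538 to 0.558 in fumarate over young under the scalings, added constants, minimums and added copies tried. A change of scaling cancels in this difference apart from the added 1 CPM, so its values under the scalings are no check of it. For aged vehicle over young, the mitochondrial median was 0.603 with TMM scaling (trimmed mean of M values), 0.610 with median-of-ratios scaling and 0.858 with scaling to the T cell marker sum, which also turned the nuclear median to 0.0777. For fumarate over vehicle, the mitochondrial median was −0.219 with TMM and −0.219 with median-of-ratios scaling, where the nuclear median turned to 0.0124 and 0.0126. With the T cell marker sum these medians were −0.563 and −0.327, with 6 mitochondrial and 4 nuclear members past 1.5-fold lower. That scaling moved the median of all genes by 0.19 (vehicle over young) and −0.29 (fumarate over vehicle), and the mitochondrial median of fumarate over young to 0.308. Nuclear members past 1.5-fold lower numbered 2 in vehicle over young and in fumarate over young with TMM, median-of-ratios and the protein-coding total, 0 and 2 with the T cell marker sum, and 2 in fumarate over young with an added constant of 0.1 CPM. The single lower member in fumarate over vehicle, Cox6b2, was not counted with an added constant of 5 CPM or a minimum mean of 10 CPM, giving 0. At a 2-fold limit 0 nuclear members were lower in each comparison, and 1 mitochondrial member was higher in vehicle over young and 1 in fumarate over young. Adding copies turned mt-Nd3 in fumarate over young to −0.0598. With the 250 bases before the start alone, the YY1 motif was in 0 and the NRF1 motif in 17.2% of members.

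Depth limits the isoforms near 0 and Cox6b2, whose few reads give wide intervals, and the spread between mice was not measured.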
